A study of Homo sapiens with 15 samples.

Results

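The genes described here are 10 long noncoding RNAs that are known to be widely expressed in human cells: NEAT1, MALAT1, KCNQ1OT1, NORAD, GAS5, SNHG1, SNHG5, SNHG8, SNHG12 and SNHG15. They were chosen by name and not by a rule on their values, but with earlier results of these data known. All 10 were among the 37787 genes of the deposited table, and all 10 were among the 13868 genes with enough counts to be tested.

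Their levels were measured in HGrC1, a line of immortalized human granulosa cells whose own FOXL2 alleles are normal, at passage 14. All libraries come from this 1 line. Cells were transiently transfected for 4 h by lipofection and then kept for 24 h without serum. The control received empty plasmids (Vectors). The other conditions received SMAD3 with wild type FOXL2 (FOXL2WT), SMAD3 with the C134W mutant of FOXL2 (FOXL2C134W), or either pair together with FOXO1-3A, a constitutively active FOXO1 (FOXL2WT+FOXO1 and FOXL2C134W+FOXO1). SMAD3 was thus shared by every condition but Vectors, so that the part of SMAD3 and the part of FOXL2 in a difference from Vectors cannot be told apart. Each of the 5 conditions had 3 replicates, A, B and C, and the p-values measure the spread between these samples only.

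Long noncoding RNAs act as transcripts rather than as templates for protein. NEAT1, MALAT1 and KCNQ1OT1 stay in the nucleus, where NEAT1 is the scaffold of paraspeckles, MALAT1 collects in the splicing-factor-rich nuclear speckles, and KCNQ1OT1 silences the imprinted genes around it. NORAD sits in the cytoplasm and binds Pumilio proteins, while GAS5 and the SNHG genes are host genes whose introns are cut out and trimmed to small nucleolar RNAs (snoRNAs), which guide the modification of ribosomal RNA.

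The libraries were made from polyadenylated RNA, and this matters for how 2 of the genes are read. NEAT1 starts at 1 site and ends at either of 2: a short form that carries a polyadenylation signal and a tail, and a long form, needed for paraspeckles, that is cut out of its precursor after an A-rich tract and has no poly(A) tail. MALAT1 is cut in the same way. The 3′ ends are shown because they separate the form that was measured from the form that was hardly measured. They were read from the plus strand of chromosome 11 of GRCh38, at chr11:65426434-65426513, chr11:65445441-65445540 and chr11:65506017-65506116. The capitals mark the polyadenylation signal AATAAA in the short form of NEAT1 and the A-rich end in the other sequences:
NEAT1 short form: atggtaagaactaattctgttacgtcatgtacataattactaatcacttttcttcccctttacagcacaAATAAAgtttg
NEAT1 long form: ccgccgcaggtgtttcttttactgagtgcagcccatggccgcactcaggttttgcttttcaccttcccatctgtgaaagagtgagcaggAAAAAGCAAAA
MALAT1: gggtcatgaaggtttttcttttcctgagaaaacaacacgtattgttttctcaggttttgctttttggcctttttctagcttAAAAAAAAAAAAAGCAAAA

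The A-rich tract matched at 2 places in MALAT1, and the end was taken as the 1 after which the annotation places a small RNA, at chr11:65506117-65506173. NEAT1 lies at chr11:65422774-65445540 and MALAT1 at chr11:65497640-65508073, both on the plus strand. The remaining genes lie at chr11:2597308-2700003 (KCNQ1OT1), chr20:36045618-36051018 (NORAD), chr1:173858559-173868882 (GAS5), chr11:62851978-62855953 (SNHG1), chr6:85650491-85678932 (SNHG5), chr4:118278703-118285316 (SNHG8), chr1:28578538-28583132 (SNHG12) and chr7:44983019-44986961 (SNHG15). All of these are on the minus strand except SNHG8, and all coordinates are those of GENCODE release 44.

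The gene table held 14962245 to 25339094 estimated counts for a library. The transfected genes followed the labels, but not at equal levels: FOXL2 averaged 8.73 CPM (counts scaled to library size) in Vectors, 561 in FOXL2WT, 147 in FOXL2C134W, 384 in FOXL2WT+FOXO1 and 152 in FOXL2C134W+FOXO1. SMAD3 averaged 249, 2768, 843, 969 and 392 CPM in the same order, and FOXO1 went from at most 13.2 CPM without its plasmid to 117 in FOXL2WT+FOXO1 and 43.2 in FOXL2C134W+FOXO1. These are RNA levels, and the study reported balanced protein of both FOXL2 forms and FOXO1 by immunoblot. By RNA, the form of FOXL2 and the dose of the plasmids cannot be told apart. With FOXO1, SMAD3 was lower beside the wild type (log2 fold change -1.51, edgeR adjusted p = 1.5e-13) and beside the mutant (-1.11, adjusted p = 8.1e-11). FOXL2 was lower beside the wild type (-0.55, adjusted p = 0.031). The addition of FOXO1 therefore cannot be told apart from these lower levels. Of 12 granulosa cell markers, 8 averaged at least 1 CPM in Vectors, among them GATA4 (149 CPM) and KRT18 (1672 CPM). The FSH receptor gene FSHR had 0 counts in every library (a count of 0 allows up to 3), CYP19A1 and INHA had 0 to 4, and AMHR2 had 0 to 7. Of 8 markers of other cell types, 6 also averaged at least 1 CPM in Vectors, among them CD68 (110 CPM) and DES (43.1 CPM). The summed level of these 8 markers was 183 to 192 CPM in Vectors and 157 to 173 CPM in the other 12 libraries, and its part in the results was not tested. In bulk RNA, fewer cells of a type and less RNA per cell cannot be told apart.

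The name "abundant" held for some of these genes only. In TPM, which is scaled to transcript length and library size, GAS5 averaged 233 TPM and SNHG5 206 TPM over the 15 libraries, against a median of 14.8 TPM over the tested genes. SNHG1 averaged 55.4, SNHG15 37.3, NORAD 34.5 and SNHG8 32.7 TPM. NEAT1 (15.3 TPM) and SNHG12 (13.2 TPM) were near the median, MALAT1 (4.76 TPM) was below it, and KCNQ1OT1 had 0.0203 TPM. The 10 genes together took 0.0411% to 0.0488% of the counts of a library.

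**Figure D1:**
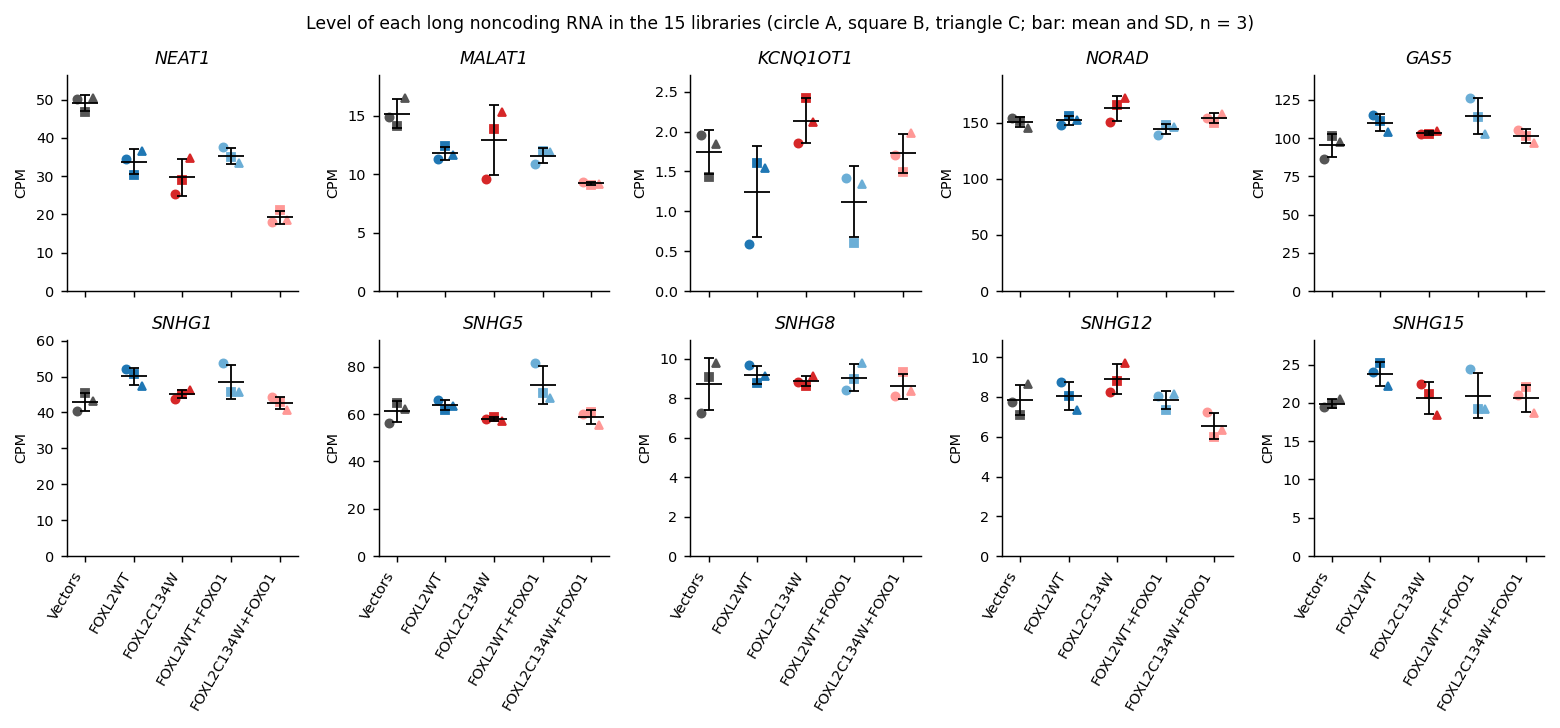
Level of each of the 10 long noncoding RNAs in CPM (vertical axes, starting at 0) in the 15 libraries, grouped by condition. Points are replicates A (circle), B (square) and C (triangle), and bars give the mean and SD of 3 replicates. NEAT1 runs from 46.7 to 50.5 CPM in Vectors and from 18.1 to 21.1 CPM in FOXL2C134W+FOXO1, while NORAD stays between 139 and 172 CPM.

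NEAT1 was the gene that moved most. It was highest in Vectors, lower in the 4 conditions with SMAD3 and FOXL2, and lowest in FOXL2C134W+FOXO1, where it was 2.56-fold lower than in Vectors. Replicates A, B and C had 50.1, 46.7 and 50.5 CPM in Vectors, 34.4, 30.3 and 36.6 CPM in FOXL2WT, and 25.3, 29.0 and 34.7 CPM in FOXL2C134W. With FOXO1 they had 37.6, 34.9 and 33.5 CPM in FOXL2WT+FOXO1, and 18.1, 21.1 and 18.4 CPM in FOXL2C134W+FOXO1. All 3 Vectors libraries were above the other 12, all 3 FOXL2C134W+FOXO1 libraries were below the other 12, and the remaining conditions overlapped. The test of any difference among the 5 conditions called NEAT1 (edgeR quasi-likelihood test, adjusted p = 1e-06) with rank 16 by p among 13868 genes. It called 4 of the 10 genes in all, NEAT1, MALAT1, SNHG5 and SNHG1, beside 16.4% of the tested genes.

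Against Vectors, NEAT1 was lower in every other condition. The means ± SD (n = 3) were 49.1 ± 2.12 CPM in Vectors, 33.8 ± 3.23 in FOXL2WT, 29.7 ± 4.74 in FOXL2C134W, 35.3 ± 2.09 in FOXL2WT+FOXO1 and 19.2 ± 1.63 in FOXL2C134W+FOXO1. The log2 fold change (± SE) was -0.53 ± 0.092 in FOXL2WT (edgeR adjusted p = 0.00182) and -0.73 ± 0.092 in FOXL2C134W (adjusted p = 3.52e-05). In FOXL2WT+FOXO1 it was -0.48 ± 0.092 (adjusted p = 0.00556), and in FOXL2C134W+FOXO1 it was -1.35 ± 0.096 (adjusted p = 5.91e-08), which was rank 51 from the lowest among the tested genes. The last 2 of these comparisons were added after the levels had been seen, and the 4 share the Vectors libraries.

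NEAT1 was the only member called in FOXL2WT against Vectors, where 6.07% of the tested genes were called, and in FOXL2C134W against Vectors, where 14.7% were. It was called with GAS5 in FOXL2WT+FOXO1 against Vectors (3.78% of genes) and with MALAT1 in FOXL2C134W+FOXO1 against Vectors (9.33%). When the length of the transcripts in each library was allowed for, as in the route of the study's methods (DESeq2 with length offsets), the difference of FOXL2WT from Vectors was -0.48 with an adjusted p of 0.0604. The other 3 kept an adjusted p under the threshold in every alternative tried.

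With FOXO1, NEAT1 was lower beside the mutant, and no difference was detected beside the wild type. FOXL2C134W+FOXO1 differed from FOXL2C134W by -0.62 ± 0.099 on the log2 scale (edgeR adjusted p = 0.00998), in a comparison that called 0.714% of the genes, and the replicates of the groups did not overlap. FOXL2WT+FOXO1 differed from FOXL2WT by 0.055 ± 0.096 (adjusted p = 0.909), and the replicates overlapped. The difference between these effects was itself tested: it was -0.68 ± 0.14 (adjusted p = 0.0183), in a test that called 1.38% of the genes and no other member.

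Both calls depended on single libraries. Without FOXL2C134W replicate B or C or FOXL2C134W+FOXO1 replicate A or C, the effect of FOXO1 beside the mutant was -0.64, -0.50, -0.58 or -0.60, with edgeR adjusted p of 0.0567, 0.0624, 0.0801 or 0.0652. Without FOXL2WT replicate B, FOXL2WT+FOXO1 replicate B or FOXL2C134W+FOXO1 replicate A, the difference between the effects was -0.62, -0.68 or -0.64, with adjusted p of 0.0679, 0.0609 or 0.0741. With transcript length offsets in DESeq2 the values were -0.53 (adjusted p = 0.103) and -0.41 (adjusted p = 0.528).

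Between the FOXL2 forms, NEAT1 differed where FOXO1 was present. FOXL2C134W+FOXO1 was below FOXL2WT+FOXO1 by -0.87 ± 0.099 on the log2 scale (edgeR adjusted p = 0.000136), and NEAT1 was the only member called, beside 0.144% of the genes. The call held in every alternative, the highest adjusted p being 0.0116. Without FOXO1 the forms differed by -0.20 ± 0.095 (adjusted p = 0.2), which left them indistinguishable at this spread. Leaving out FOXL2C134W replicate C changed this to -0.32 (adjusted p = 0.0376). The order of the levels was therefore Vectors, then FOXL2WT+FOXO1, FOXL2WT and FOXL2C134W, of which the neighbours did not differ beyond their spread, and then FOXL2C134W+FOXO1.

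**Figure D2:**
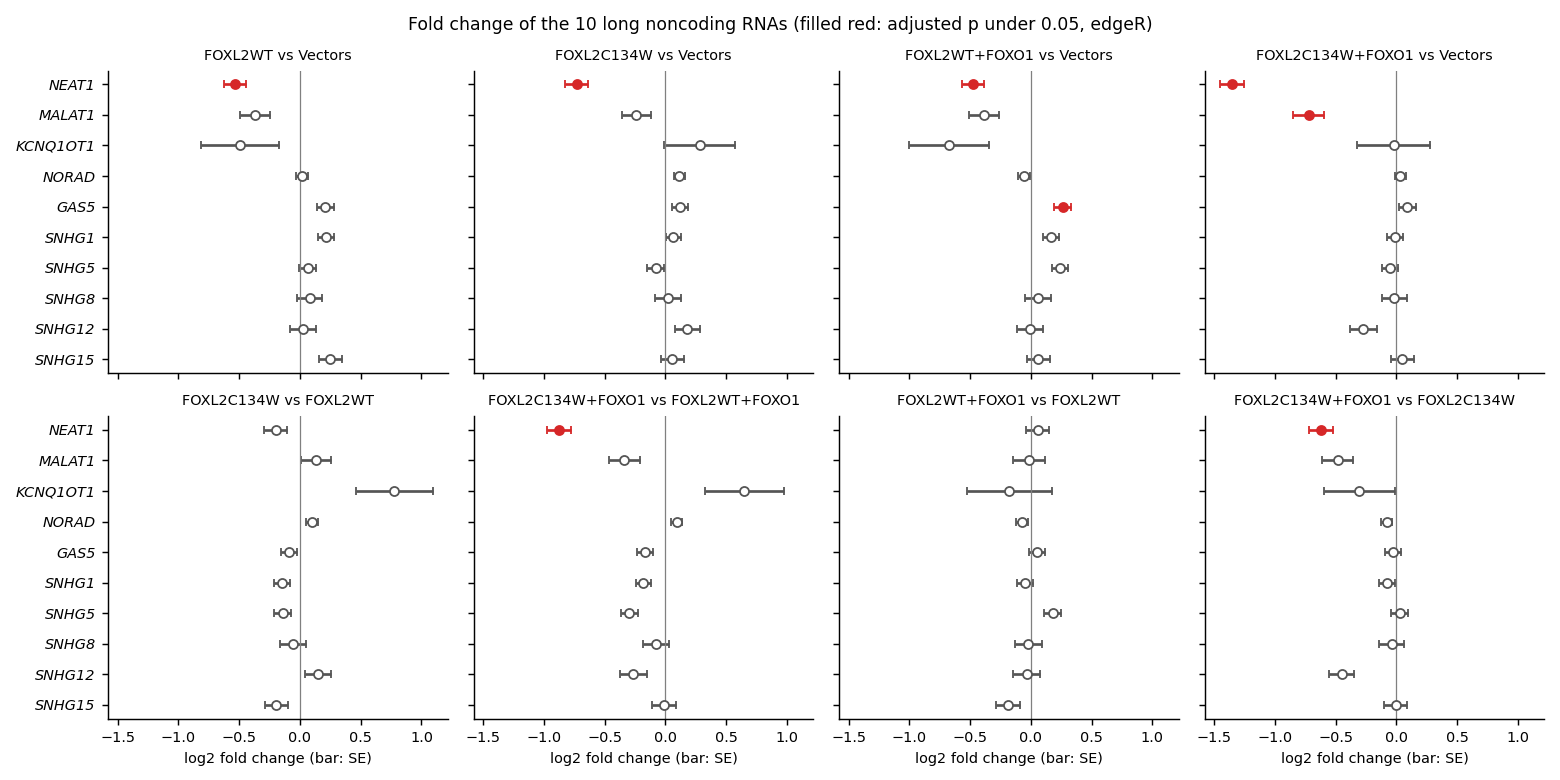
Log2 fold change with its SE (horizontal axes, the first named condition minus the second) of the 10 long noncoding RNAs in 8 comparisons, from 1 edgeR fit of 15 libraries. Filled red points have an adjusted p under 0.05. NEAT1 is the lowest value against Vectors in FOXL2WT, FOXL2C134W and FOXL2C134W+FOXO1, at -0.53, -0.73 and -1.35, and KCNQ1OT1, with the widest bars, is the lowest in FOXL2WT+FOXO1.

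The reads of NEAT1 fell on the short forms. The long transcript (22743 bases) was assigned 4.17 to 21.2 estimated reads per library, or 0.6% to 2.16% of the reads of the gene. Its share pooled over a condition was 1.19% in Vectors, 1.5% in FOXL2WT, 1.45% in FOXL2C134W, 1.03% in FOXL2WT+FOXO1 and 1.81% in FOXL2C134W+FOXO1. Short transcripts of 3300, 3441 and 2994 bases held 40.7%, 38.1% and 8.89% of the reads, and all 3 end within the sequence of the short form printed above. The forms overlap, so that the split between them is an estimate, and the shares are given as a description.

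On the TPM scale the order changed in the middle. NEAT1 averaged 22.8 ± 4.16 TPM in Vectors, 16.1 ± 2.2 in FOXL2WT, 14.6 ± 0.595 in FOXL2WT+FOXO1, 13.5 ± 1.54 in FOXL2C134W and 9.31 ± 1.92 in FOXL2C134W+FOXO1 (SD, n = 3). The mean effective length of its transcripts (the length used for TPM), weighted by TPM, ran from 1924 to 3159 bases between libraries.

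**Figure D3:**
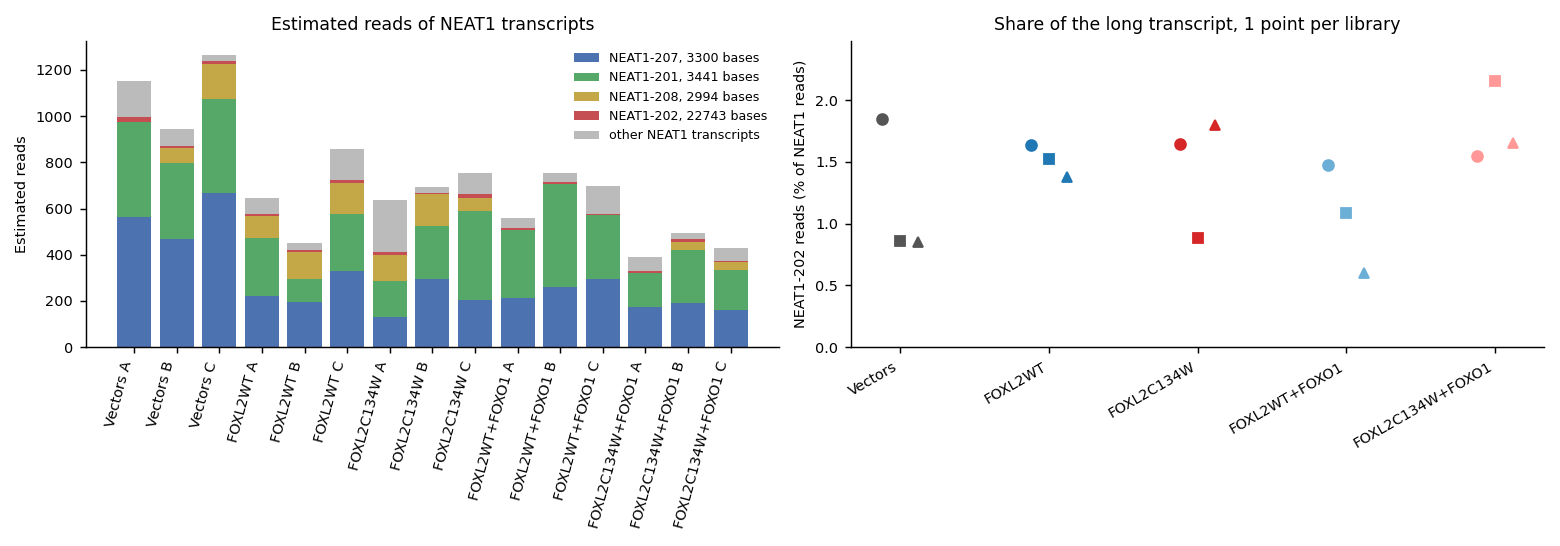
Left, estimated reads of the NEAT1 transcripts in each library (stacked bars, vertical axis from 0, not scaled for library size); right, reads of the long transcript as a percentage of all NEAT1 reads, 1 point per library by condition. The long transcript takes 0.6% to 2.16% of the reads.

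Of 14 genes of proteins that share paraspeckles with NEAT1, 6 rose in FOXL2C134W against Vectors, beside 7.48% of all tested genes that rose. Their median log2 fold change was 0.10, against 0.0043 over all genes. SMARCA4, the ATPase of a chromatin remodelling complex, rose by 0.50 ± 0.058 (edgeR adjusted p = 1.75e-05) and the RNA-binding protein TAF15 by 0.25 ± 0.076 (adjusted p = 0.0332). Against FOXL2WT, 5 of the 14 rose in FOXL2C134W, where 7.13% of all genes did. NEAT1 was also lower than in Vectors in the other conditions, but few of the 14 were called there. The counts against Vectors were 0 in FOXL2WT (6.07% of all tested genes), 0 in FOXL2WT+FOXO1 (3.78%) and 1 in FOXL2C134W+FOXO1 (9.33%). In FOXL2C134W+FOXO1 against FOXL2C134W, SMARCA4 fell, by -0.33 ± 0.057 (adjusted p = 0.0146).

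The genes whose level over the 15 libraries was most like that of NEAT1 were NDRG2 (Pearson r = 0.903) and CTSD (r = 0.89), which encodes the lysosomal protease cathepsin D. The points share library and condition, and the values are descriptions. NDRG2 had 20.7 CPM in Vectors and 14.0 CPM in FOXL2C134W+FOXO1, and CTSD had 252 and 214 CPM.

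In CPM, MALAT1, like NEAT1, had its highest mean in Vectors and its lowest in FOXL2C134W+FOXO1. Replicates A, B and C had 14.9, 14.1 and 16.6 CPM in Vectors, 11.3, 12.4 and 11.7 CPM in FOXL2WT, and 9.58, 13.9 and 15.3 CPM in FOXL2C134W. They had 10.9, 11.97 and 11.9 CPM in FOXL2WT+FOXO1 and 9.37, 9.07 and 9.20 CPM in FOXL2C134W+FOXO1. The Vectors libraries were above those of every condition but FOXL2C134W, and the FOXL2C134W+FOXO1 libraries were below the other 12. FOXL2C134W replicate A stood apart from replicates B and C, and it was also the lowest of the 3 for NEAT1.

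The test of any difference called MALAT1 (edgeR adjusted p = 0.00637). FOXL2C134W+FOXO1 was below Vectors by -0.72 ± 0.12 on the log2 scale (adjusted p = 0.000943), a 1.65-fold lower level. The differences of FOXL2WT (-0.37 ± 0.12, adjusted p = 0.0858) and FOXL2WT+FOXO1 (-0.39 ± 0.12, adjusted p = 0.0968) did not pass, nor did those of FOXL2C134W+FOXO1 from FOXL2C134W (-0.48 ± 0.13, adjusted p = 0.0817) and from FOXL2WT+FOXO1 (-0.34 ± 0.13, adjusted p = 0.276). Without FOXL2C134W replicate A the difference between FOXL2C134W+FOXO1 and FOXL2C134W was -0.67 (adjusted p = 0.000538), and the effect of FOXO1 beside the mutant minus that beside the wild type went from -0.47 ± 0.18 (adjusted p = 0.264) to -0.65 (adjusted p = 0.00573).

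The call for MALAT1 was lost when transcript length was allowed for. With length offsets in DESeq2, FOXL2C134W+FOXO1 differed from Vectors by -0.19 (adjusted p = 0.888), and its difference from FOXL2C134W turned to 0.12 (adjusted p = 0.99). MALAT1 had 162 to 414 counts per library, divided over 17 deposited transcripts of 132 to 8708 bases, of which 1 of 5340 bases held 71.8% of the reads and 1 of 8708 bases 20.8%. The mean effective length of its transcripts, weighted by TPM, ran from 1579 to 4673 bases between libraries. Its highest condition mean exceeded the lowest 1.65-fold in CPM and 1.37-fold in TPM. The order of the conditions was not the same in TPM. The means were 5.7 ± 2.6 TPM in FOXL2WT+FOXO1, 5.2 ± 2.1 in Vectors and 4.6 ± 1.8 in FOXL2C134W+FOXO1. They were 4.2 ± 0.35 TPM in FOXL2C134W and 4.1 ± 0.89 in FOXL2WT (SD, n = 3).

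MALAT1 and NEAT1, neighbours on chromosome 11, varied together over the libraries. Pearson's r of their log2 CPM was 0.832 over 15 libraries and 0.535 for the deviations from the condition means, given as a description. The genes most like MALAT1 were WSB1 (r = 0.886) and the noncoding RNA CHROMR (r = 0.878).

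Of 12 genes of nuclear speckle proteins, 6 rose in FOXL2C134W against Vectors and 6 against FOXL2WT, beside 7.48% and 7.13% of all tested genes, with median log2 fold changes of 0.17 and 0.13, against 0.0043 and -0.012 over all genes. MALAT1 itself was called in neither comparison (edgeR adjusted p = 0.203 and 0.563). In FOXL2C134W+FOXO1 against Vectors, where MALAT1 was called, 0 of the 12 were (9.33% of all tested genes). The count against Vectors was also 0 in FOXL2WT (6.07%) and in FOXL2WT+FOXO1 (3.78%). SRRM2, a scaffold of nuclear speckles, rose from 159.5 ± 8.56 CPM (SD, n = 3) in Vectors to 258 ± 43.96 in FOXL2C134W, a log2 fold change of 0.69 ± 0.10 (edgeR adjusted p = 0.000186). SRRM1, a splicing coactivator, rose by 0.32 ± 0.086 (adjusted p = 0.017). With FOXO1 beside the mutant, SRRM2 fell by 0.52 on the log2 scale (SE 0.10, adjusted p = 0.0225). The FOXL2C134W libraries also had the highest share of counts in mitochondrially encoded genes, 0.314% to 0.369% against 0.264% to 0.309% in the others. Of 12 tested mitochondrially encoded mRNAs, 11 rose in FOXL2C134W against Vectors, where 7.48% of all genes did, and 7 fell in FOXL2C134W+FOXO1 against FOXL2C134W, where 0.714% of all genes were called. The part of this in the results was not tested.

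**Figure D4:**
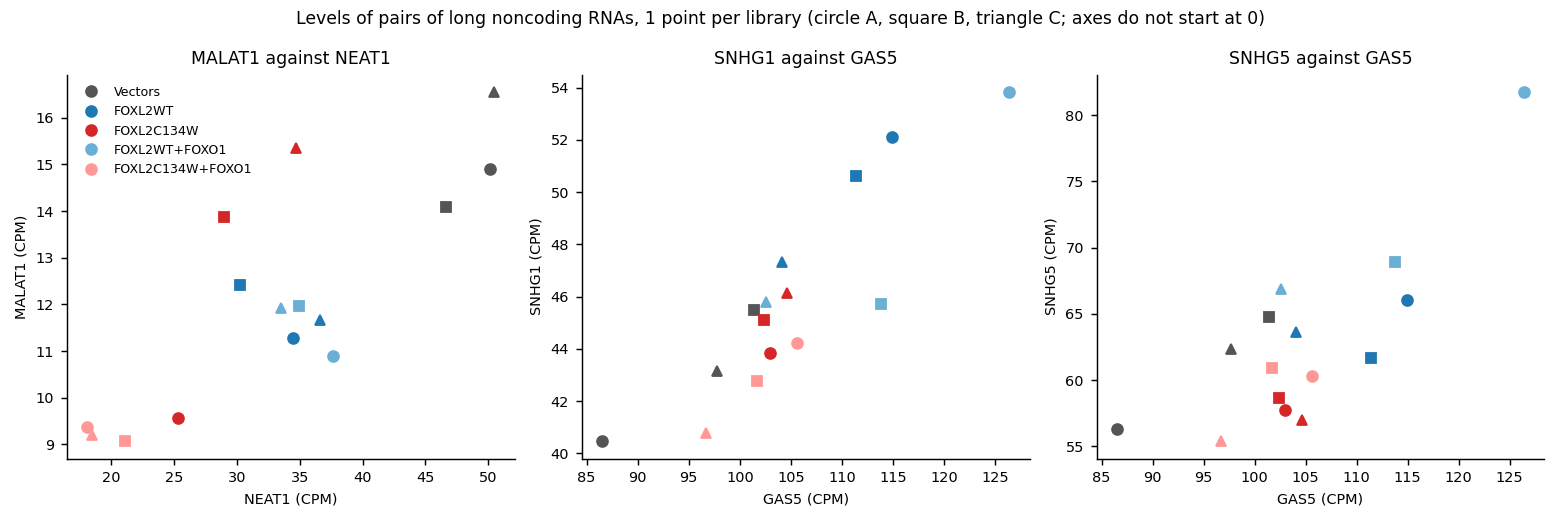
Level of MALAT1 against NEAT1, SNHG1 against GAS5 and SNHG5 against GAS5 in CPM, 1 point per library, coloured by condition (circle A, square B, triangle C; the axes do not start at 0). The FOXL2C134W+FOXO1 libraries are the lowest for both NEAT1 and MALAT1, and FOXL2WT+FOXO1 replicate A is the highest library for GAS5, SNHG1 and SNHG5.

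KCNQ1OT1 was too low for a firm comparison. It had 11 to 58 counts per library on a single transcript of 91667 bases. Replicates A, B and C had 1.96, 1.43 and 1.84 CPM in Vectors, 0.586, 1.61 and 1.54 CPM in FOXL2WT, and 1.86, 2.42 and 2.12 CPM in FOXL2C134W. They had 1.41, 0.603 and 1.35 CPM in FOXL2WT+FOXO1 and 1.71, 1.49 and 1.98 CPM in FOXL2C134W+FOXO1. The FOXL2C134W libraries lay above the FOXL2WT libraries, FOXL2C134W+FOXO1 lay above FOXL2WT+FOXO1, and FOXL2WT+FOXO1 lay below Vectors. The libraries overlapped in the other 5 comparisons made.

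The difference between FOXL2C134W and FOXL2WT was 0.78 ± 0.31 on the log2 scale (edgeR adjusted p = 0.124), and it was 0.44 (adjusted p = 0.41) without FOXL2WT replicate A, the lowest library. With offsets for gene length and GC content it was 0.14 (adjusted p = 0.844), and with a filter of at least 1 count in any library it was called (0.78, adjusted p = 0.0387). KCNQ1, the gene on the opposite strand whose span holds KCNQ1OT1, had 1 to 5 counts per library. Of 7 tested genes of the imprinted domain, 1 was called in FOXL2C134W against FOXL2WT, beside 11.2% of all tested genes. This was the cell cycle inhibitor CDKN1C, which fell by -1.09 ± 0.22 (adjusted p = 0.00343), from 2.12 to 0.992 CPM. Its level was about as low as that of KCNQ1OT1. Against Vectors it was not called in FOXL2WT (0.47 ± 0.21, edgeR adjusted p = 0.21) or in FOXL2C134W (-0.62 ± 0.22, adjusted p = 0.069). A link between CDKN1C and KCNQ1OT1 was not tested.

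In CPM, NORAD was the most even member with a high level. This did not hold in TPM, where its highest condition mean exceeded the lowest 1.185-fold, against 1.126-fold for GAS5 and 1.161-fold for SNHG5. It took 139 to 172 CPM, or 2065 to 3957 counts per library, on a single transcript. The condition means ± SD (n = 3) were 150 ± 4.56 CPM in Vectors, 152 ± 4.04 in FOXL2WT, 163 ± 11.1 in FOXL2C134W, 144 ± 4.58 in FOXL2WT+FOXO1 and 154 ± 4.26 in FOXL2C134W+FOXO1. Its largest log2 fold change was 0.11 ± 0.047, in FOXL2C134W against Vectors (edgeR adjusted p = 0.119). FOXL2C134W replicate A, with 150 CPM, was below replicates B and C (165 and 172 CPM), and without it the value was 0.17 (adjusted p = 0.0119).

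The NORAD transcript of 5401 bases held 15 matches of the Pumilio motif TGTANATA, 10 of them TGTATATA, against 1 match on the other strand of the gene. Some of these matches lie next to each other. The windows below are on the minus strand of chromosome 20 at chr20:36050182-36050211, chr20:36049501-36049530, chr20:36047971-36048000 and chr20:36047350-36047379, and show sites by their order from the 5′ end, with the motif in capitals:
NORAD site 1: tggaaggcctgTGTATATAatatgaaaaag
NORAD site 4: ttacttatctgTGTATATAgTGTACATAaa
NORAD site 11: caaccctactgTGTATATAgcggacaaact
NORAD site 14: caatgctactgTGTATATAatggaaaactt

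The window of site 4 also holds site 5. The Pumilio gene PUM2 had condition means of 155 to 164 CPM, and the test of any difference gave an adjusted p of 0.656. Of 4 NORAD-binding proteins, 1 was called in FOXL2C134W+FOXO1 against Vectors, beside 9.33% of all tested genes. This was RBMX, an RNA-binding protein that joins NORAD in the nucleus, with 332 CPM in Vectors and 376 CPM in FOXL2C134W+FOXO1 (log2 fold change 0.18 ± 0.038, edgeR adjusted p = 0.00616).

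Among the snoRNA hosts, GAS5, SNHG1 and SNHG5 had their highest means with wild type FOXL2. GAS5 is known to accumulate when growth stops. Its replicates A, B and C had 86.5, 101 and 97.7 CPM in Vectors, 115, 111 and 104 CPM in FOXL2WT, and 103, 102 and 105 CPM in FOXL2C134W. They had 126, 114 and 103 CPM in FOXL2WT+FOXO1 and 106, 102 and 96.7 CPM in FOXL2C134W+FOXO1. The Vectors libraries lay below those of FOXL2WT, FOXL2C134W and FOXL2WT+FOXO1 and overlapped with FOXL2C134W+FOXO1.

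GAS5 was called in FOXL2WT+FOXO1 against Vectors, at 0.26 ± 0.067 (edgeR adjusted p = 0.0348), a rise of 19.8%. The call was lost without Vectors replicate A (0.20, adjusted p = 0.205) or C (0.28, adjusted p = 0.069), without FOXL2WT+FOXO1 replicate A (0.19, adjusted p = 0.163) or B (0.26, adjusted p = 0.083), with transcript length offsets in DESeq2 (0.21, adjusted p = 0.341), and in a fit of these groups alone (0.26, adjusted p = 0.0847). FOXL2WT against Vectors gave 0.21 ± 0.067 (adjusted p = 0.0734), and DESeq2 on the same counts called it (adjusted p = 0.0416). Between FOXL2C134W+FOXO1 and FOXL2WT+FOXO1 the value was -0.17 ± 0.067 (adjusted p = 0.285).

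SNHG5 had condition means ± SD of 61.1 ± 4.37 CPM in Vectors, 63.8 ± 2.2 in FOXL2WT, 57.8 ± 0.816 in FOXL2C134W, 72.5 ± 8.06 in FOXL2WT+FOXO1 and 58.9 ± 3.02 in FOXL2C134W+FOXO1 (n = 3). The replicates A, B and C of FOXL2WT+FOXO1 had 81.8, 69.0 and 66.9 CPM, above the other 12 libraries, of which the highest had 66.1 CPM. The test of any difference called SNHG5 (edgeR adjusted p = 0.0133), though not with transcript length offsets in DESeq2 (adjusted p = 0.0628). FOXL2C134W+FOXO1 was below FOXL2WT+FOXO1 by -0.30 ± 0.068 (adjusted p = 0.109), a difference that DESeq2 on the same counts called (adjusted p = 0.0113), and FOXL2WT+FOXO1 was above Vectors by 0.24 ± 0.068 (adjusted p = 0.0536). It was above FOXL2WT by 0.18 ± 0.068 (adjusted p = 0.46), and FOXL2C134W differed from FOXL2WT by -0.14 ± 0.068 (adjusted p = 0.195).

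SNHG1 was called by the test of any difference (edgeR adjusted p = 0.0486) and in no comparison of 2 conditions in the reported fit. The first of these was lost in 10 of 15 fits that left out 1 library, the highest adjusted p being 0.137, without FOXL2WT replicate A. Its means ± SD (n = 3) were 43.0 ± 2.51 CPM in Vectors, 50.02 ± 2.46 in FOXL2WT, 45.0 ± 1.14 in FOXL2C134W, 48.4 ± 4.66 in FOXL2WT+FOXO1 and 42.6 ± 1.73 in FOXL2C134W+FOXO1. The 3 FOXL2WT libraries, at 47.3 to 52.1 CPM, lay above those of Vectors, FOXL2C134W and FOXL2C134W+FOXO1. The difference of FOXL2WT from Vectors was 0.22 ± 0.065 (adjusted p = 0.0579), and 3 alternatives called it besides a fit of the groups compared, DESeq2 among them (adjusted p = 0.0393). FOXL2C134W differed from FOXL2WT by -0.15 ± 0.065 (adjusted p = 0.151), FOXL2C134W+FOXO1 from FOXL2WT+FOXO1 by -0.18 ± 0.065 (adjusted p = 0.254), and FOXL2WT+FOXO1 from Vectors by 0.17 ± 0.065 (adjusted p = 0.19).

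GAS5, SNHG1 and SNHG5 varied together, also within conditions. Pearson's r of the deviations from the condition means over 15 libraries was 0.904 for GAS5 and SNHG1, 0.872 for GAS5 and SNHG5, and 0.87 for SNHG1 and SNHG5, given as a description. FOXL2WT+FOXO1 replicate A was the highest library for all 3. The genes most like GAS5 were the snoRNA host SNHG29 (r = 0.95) and the ribosomal protein gene RPS3 (r = 0.93), and those most like SNHG5 were the snoRNA host ZFAS1 (r = 0.951) and RPL27 (r = 0.943), a ribosomal protein gene. For SNHG1 they were the snoRNA host SNHG17 (r = 0.946) and the activin subunit gene INHBE (r = 0.92).

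Host genes of snoRNAs and ribosomal protein genes are known for a terminal oligopyrimidine tract, a run of C and T at the first transcribed bases. The sequences around the annotated starts of GAS5, SNHG1 and SNHG5 are shown because these genes moved together. They come from RefSeq on GRCh38, all on minus strands, from 50 bases before the start, at chr1:173868996-173869095, chr11:62855836-62855935 and chr6:85678684-85678783, and the longest run of at least 5 pyrimidines that touches the 10 bases on either side of the start is in capitals:
GAS5: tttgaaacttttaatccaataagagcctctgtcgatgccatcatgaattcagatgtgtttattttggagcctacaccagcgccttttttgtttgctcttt
SNHG1: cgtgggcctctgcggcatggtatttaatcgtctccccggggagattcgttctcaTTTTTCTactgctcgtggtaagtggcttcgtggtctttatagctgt
SNHG5: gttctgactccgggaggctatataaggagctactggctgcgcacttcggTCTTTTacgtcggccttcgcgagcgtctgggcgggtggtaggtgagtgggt

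SNHG5 had a run of 6 pyrimidines at the start and SNHG1 a run of 7 just after it, and 48.4% of the 35116 windows of this kind in RefSeq hold such a run. No run was found for GAS5, whose RefSeq start lies upstream of the GENCODE gene used for the coordinates. The GAS5 bases shown lie wholly outside that gene and do not show its first bases. For SNHG1 and SNHG5 the RefSeq start lies inside the GENCODE gene and not at its 5′ end. Of 10 genes, 7 had such a window. NEAT1, KCNQ1OT1 and SNHG15 had none, so that their starts were not searched. The forkhead motif GTAAACA (or TGTTTAC on the other strand), in 3.42% of all windows of 300 bases, and the SMAD motif CAGACA (or TGTCTG), in 16.9%, were in none of the 8 windows of the 7 genes that had one. With so few windows and such shares, an absence says little.

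SNHG12 was lowest in FOXL2C134W+FOXO1, at 7.25, 6.01 and 6.32 CPM in replicates A, B and C. It had 8.23, 8.82 and 9.72 CPM in FOXL2C134W, 7.76, 7.12 and 8.64 CPM in Vectors, 8.73, 8.05 and 7.35 CPM in FOXL2WT, and 8.07, 7.33 and 8.13 CPM in FOXL2WT+FOXO1. The libraries of FOXL2C134W+FOXO1 lay below those of FOXL2C134W, FOXL2WT and FOXL2WT+FOXO1 and overlapped with Vectors. FOXL2C134W+FOXO1 differed from FOXL2C134W by -0.45 ± 0.11 (edgeR adjusted p = 0.0549), a 1.37-fold lower level, and 4 alternatives called it, besides the fit without FOXL2C134W replicate A (-0.51, adjusted p = 0.0215). DESeq2 on the same counts gave an adjusted p of 0.0463. FOXL2C134W+FOXO1 differed from FOXL2WT+FOXO1 by -0.26 ± 0.11 (edgeR adjusted p = 0.307) and from Vectors by -0.27 ± 0.11 (adjusted p = 0.128), and the FOXO1 effects differed by -0.42 ± 0.15 (adjusted p = 0.234).

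SNHG15, the host of SNORA9, had its highest mean in FOXL2WT, at 23.8 ± 1.56 CPM, against 19.9 ± 0.559 CPM in Vectors (SD, n = 3). The difference was 0.25 ± 0.096 (edgeR adjusted p = 0.134), and the libraries did not overlap. SNHG8, the host of SNORA24, was the member that varied least between conditions in CPM, with means of 8.61 to 9.2 CPM and an adjusted p of 0.923 for any difference. Its largest log2 fold change was 0.079 ± 0.11, in FOXL2WT against Vectors (adjusted p = 0.732). Its counts were 125 to 245 per library.

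The deposited transcripts of the hosts are many and uneven. SNHG5 had 89 transcripts, of which 1 of 553 bases held 60.9% of the reads, and GAS5 had 31, of which 1 of 723 bases held 34.4%. Of the 6 transcripts of SNHG12 and the 6 of SNHG15 that reached 10% of the reads in a condition, 5 and 4 were listed at 0 reads in at least 1 library, so no change between their transcripts is given.

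Counted as a group, few members were called, and the shares that did not overlap differed between comparisons. Against Vectors, the groups did not overlap for 5 of 10 members in FOXL2WT (31.1% of all genes), 2 in FOXL2C134W (31.8%), 6 in FOXL2WT+FOXO1 (22.7%) and 2 in FOXL2C134W+FOXO1 (28.4%). Between FOXL2C134W and FOXL2WT, edgeR called 0 of 10, beside 11.2% of all genes, with 3 at an unadjusted p under 0.05, and DESeq2 on the same counts called 0. The groups did not overlap for 3 members (30.4% of all genes).

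With FOXO1, edgeR called 0 of 10 between FOXL2WT+FOXO1 and FOXL2WT, beside 0.0505% of all genes, with 1 at an unadjusted p under 0.05, and DESeq2 also called 0. Here 2 members did not overlap (14.5% of all genes), and 3 did not between FOXL2C134W+FOXO1 and FOXL2C134W (14% of all genes). Between FOXL2C134W+FOXO1 and FOXL2WT+FOXO1, 7 of 10 did not overlap, beside 15.2% of all genes, and the median log2 fold change of the members was -0.18, against -0.00093 over all genes. The members that did not overlap went in both directions: KCNQ1OT1 and NORAD were higher in FOXL2C134W+FOXO1, and the others lower. Only NEAT1 was called, beside 0.144% of all genes.

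Of 21 other snoRNA hosts tested, the test of any difference called 4, SNHG14, SNHG17, SNHG29 and SNHG32, beside 16.4% of all tested genes. SNHG32 was called in no comparison of 2 conditions, and no such comparison called more than 1 of the 21. SNHG17 rose in FOXL2WT against Vectors, where 2.46% of all genes did, from 13.7 to 17.4 CPM (log2 fold change 0.34 ± 0.085, edgeR adjusted p = 0.0231), and SNHG29 rose in FOXL2WT+FOXO1 against Vectors, where 1.41% did, from 197 to 237 CPM (0.27 ± 0.066, adjusted p = 0.0275). SNHG14 rose in FOXL2C134W against Vectors, from 58.1 to 71.5 CPM (0.30 ± 0.062, adjusted p = 0.0029). The median over the 21 was 0.081 in FOXL2WT, 0.061 in FOXL2C134W, 0.15 in FOXL2WT+FOXO1 and -0.033 in FOXL2C134W+FOXO1 against Vectors, beside medians over all genes between 0.00031 and 0.0043.

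Messenger RNAs with a terminal oligopyrimidine tract gave calls in both directions in the mutant. Of 20, 3 rose and 1 fell in FOXL2C134W against Vectors, beside 14.7% of all tested genes that were called there. PABPC1, the poly(A)-binding protein, rose by 0.22 ± 0.034 (edgeR adjusted p = 0.000291), EIF4B, an initiation factor, by 0.18 ± 0.037 (adjusted p = 0.0028), and TPT1 fell, by -0.24 ± 0.045 (adjusted p = 0.00118). RPS3, one of the genes most like GAS5, rose in FOXL2WT+FOXO1 against Vectors by 0.29 ± 0.076 (adjusted p = 0.0344).

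Spliced snoRNA host transcripts are known to be degraded by nonsense-mediated decay. Of 14 genes of decay factors, 4 rose in FOXL2C134W against Vectors and 4 against FOXL2WT, beside 7.48% and 7.13% of all tested genes. The helicase UPF1 had 97.5 CPM in Vectors and 115 CPM in the mutant (log2 fold change 0.24 ± 0.049, edgeR adjusted p = 0.0029), and RBM8A, a core protein of the exon junction complex, rose by 0.18 ± 0.040 (adjusted p = 0.00449).

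Of 16 other long noncoding RNAs that were tested, the test of any difference called 1, beside 16.4% of all tested genes. This was H19, an imprinted RNA of the growth-related IGF2 locus. It fell in FOXL2C134W+FOXO1 against Vectors, from 5.69 to 3.21 CPM (log2 fold change -0.82 ± 0.17, edgeR adjusted p = 0.0039), and in FOXL2C134W (-0.56 ± 0.16, adjusted p = 0.0265). The value was of like size in FOXL2WT (-0.57 ± 0.17, adjusted p = 0.0524) and smaller in FOXL2WT+FOXO1 (-0.27 ± 0.16, adjusted p = 0.428). FOXL2C134W differed from FOXL2WT by 0.012 ± 0.18 (adjusted p = 0.976). TUG1 had condition means of 125 to 145 CPM and an adjusted p of 0.0828.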

How the data were processed

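Conditions and replicate letters of the 15 HGrC1 libraries (5 conditions, 3 replicates) were taken from the sample labels. Per the labels, stranded mRNA libraries were read as 75-bp single ends. The authors estimated transcript abundance with Salmon 1.1.0 on hg38 and deposited estimated counts per gene symbol, rounded to whole numbers and not normalized, which serve the tests here. The deposited TPM values and reads of 227063 transcripts per library, from the same run, were used for levels per length, transcript lengths and shares. The study tested with DESeq2 after summing transcripts to genes. Transcript reads summed to the gene table within 1 count for all 10 members, and no column was left unmapped. Coordinates and sequences came from GENCODE 44, GRCh38 and RefSeq windows (GRCh38.p14). GENCODE 44 held 98.4% of the transcript identifiers, and its MALAT1 models differ in length from the deposited ones.

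All 15 libraries were fitted together with edgeR 4.0.16 in R 4.3.3: filterByExpr (13868 genes left), TMM scaling, 1 term per condition, and the quasi-likelihood test. A gene was called when its p, adjusted over all tested genes after Benjamini and Hochberg, was under 0.05. The SE is the log2 fold change divided by the square root of F. Log2 CPM for correlations had a prior count of 2. Comparisons were FOXL2WT and FOXL2C134W with Vectors and with each other, each FOXO1 condition with its counterpart and with each other, the difference of the FOXO1 effects, and any difference among conditions. The comparisons of FOXO1 conditions with Vectors were added after the levels had been seen. The scripts were tested on simulated counts. Counts between replicates spread wider than counting noise (chi-square per degree of freedom 2.2 to 8.86), and no 2 libraries were counted as 1.

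The members and the other gene lists (from general knowledge) were chosen with earlier results of these data known. Some genes are not reported here. Named genes are all members, at most 4 genes of each other list with the smallest p for any difference, the transfected genes, the 2 non-member genes with the highest Pearson r to each member, and overlapping genes. Some cell type markers are also named for their level. Folds of members are printed for NEAT1, where the unadjusted p was under 0.05, and for each member's largest. Transcripts are named from a share of 10% in any condition. Alternatives were DESeq2 1.42.0 on the same counts, DESeq2 with transcript length offsets, its size factors in edgeR, filters of at least 1 count in any library or 10 in every library, edgeR offsets that correct for GC content and gene length (lowess span 0.3), the replicate letter as a block, fits restricted to the compared groups, TPM in place of CPM, and leaving out each library. Tables and figures were made with Python 3.11.15, pandas 2.3.3, numpy 2.4.6 and matplotlib 3.10.9.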

Additional observations from a re-analysis of the deposited data

Results flagged for a closer look

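The effect of FOXO1 on NEAT1 differed between the forms of FOXL2. FOXL2C134W+FOXO1 minus FOXL2C134W less the same difference for FOXL2WT was -0.68 on the log2 scale (SE 0.14, edgeR adjusted p = 0.0183 over 13868 genes). All 3 FOXL2C134W+FOXO1 libraries were below the 3 FOXL2C134W libraries, while the libraries with wild type FOXL2 overlapped. FOXO1 reached 117 CPM beside the wild type and 43.2 CPM beside the mutant. SMAD3 had 969 and 392 CPM there, against 2768 and 843 CPM without FOXO1, and the part of these levels was not tested. The call was lost in 3 of 12 fits that left out a library and with transcript length offsets. Groups of 3 libraries were not tested for single libraries that stand apart.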

How the results depend on the processing

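Counts of members called changed with the setting. FOXL2WT against Vectors gave 1, and 3 with DESeq2 on the same counts or with gene length and GC offsets, 4 with a filter of at least 1 count in any library, 5 in a fit of only the groups compared and 0 with transcript length offsets. FOXL2C134W against Vectors gave 1, and 2 with gene length and GC offsets. FOXL2C134W against FOXL2WT gave 0, and 1 with the 1-count filter. FOXL2C134W+FOXO1 against FOXL2C134W gave 1, and 3 with DESeq2, the 1-count filter or gene length and GC offsets, 2 with the filter of 10 counts in every library and 0 with transcript length offsets. FOXL2C134W+FOXO1 against FOXL2WT+FOXO1 gave 1, and 2 with DESeq2, the 1-count filter or gene length and GC offsets. The difference of the FOXO1 effects gave 1, and 0 with transcript length offsets. FOXL2WT+FOXO1 against Vectors gave 2, with 1 and 4 for transcript length offsets and the 1-count filter, and FOXL2C134W+FOXO1 against Vectors 2, with 1 for transcript length offsets. Any difference gave 4, with 1 for transcript length offsets (NEAT1) and 7 for the 1-count filter. The cause was not tested.

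Without 1 library, these counts ran from 1 to 2 in FOXL2C134W against Vectors, 0 to 2 in FOXL2C134W against FOXL2WT, 0 to 3 in FOXL2C134W+FOXO1 against FOXL2C134W, 0 to 2 in the difference of the FOXO1 effects, 1 to 3 in FOXL2WT+FOXO1 against Vectors and 3 to 7 in any difference. Leaving out FOXL2C134W replicate A gave the highest count in 5 of these, shared with replicate C in FOXL2C134W against Vectors. Without replicate A, NORAD joined NEAT1 against Vectors, and MALAT1 (0.32, adjusted p = 0.0234) and NORAD (0.16, adjusted p = 0.0224) were called against FOXL2WT.

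Of 1320 member fold changes over the alternatives, 85 had the other sign. None of these was called in either fit, and the lowest adjusted p among them was 0.0817 in the reported fit. Among the printed ones, with transcript length offsets SNHG8 in FOXL2WT against Vectors went from 0.079 to -0.16, NEAT1 in FOXL2WT+FOXO1 against FOXL2WT to -0.13, MALAT1 in FOXL2C134W+FOXO1 against FOXL2C134W to 0.12 and MALAT1 in FOXL2WT+FOXO1 against Vectors to 0.16. Without 1 library, SNHG8 ran from -0.040 to 0.18 and NEAT1 in FOXL2WT+FOXO1 against FOXL2WT from -0.010 to 0.12.

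Replicate letters did not pair the samples: 2 of 30 pairs of the same letter had deviations that correlated over 0.1 (range -0.164 to 0.166). The replicate block gave 1, 1, 0, 0, 1, 1 and 1 members called in the 7 comparisons in the order of the methods and 3 for any difference, and 2 in each comparison of a FOXO1 condition with Vectors. In TPM, the ratio of the highest to the lowest condition mean moved by more than the spread for MALAT1 (1.65 to 1.37), NORAD (1.13 to 1.19) and SNHG5 (1.25 to 1.16). For MALAT1 the highest and the lowest condition were also others than in CPM. With 11 to 58 counts, KCNQ1OT1 is limited by depth.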

Other observations

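GAS5-AS1, on the opposite strand of GAS5, had 0 to 11 counts per library, and PRSS12, opposite SNHG8, had 0 to 6. ZBTB37, which overlaps an end of GAS5 on the opposite strand, had 145 to 351 counts. The pseudogene PKMP3, inside the span of SNHG5 on the same strand, had 0 to 3 counts. The libraries were stranded, and whether the estimates used the strand is not given in the sources used here.

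The genes most like the remaining members over the 15 libraries were MAPK1IP1L (r = 0.926) and FAR1 (r = 0.908) for NORAD, CERS5 (r = 0.912) and KEAP1 (r = 0.903) for SNHG15, TAF1C (r = 0.817) and ZNF446 (r = 0.808) for SNHG12, SCARNA12 (r = 0.8) and ZNF324 (r = 0.755) for SNHG8, and TCTE3 (r = 0.783) and SLX4IP (r = 0.761) for KCNQ1OT1. SNHG5 and NORAD varied in opposite directions (r = -0.737).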
